A study of Mus musculus with 12 samples.

Results

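The comparison described here asks how the effect of a conditional Tbx4 knockout on the mouse lung changed between postnatal day 14 (P14) and postnatal day 36 (P36). For each gene, the log2 fold change of knockout over control at P36 was compared with the log2 fold change at P14, and the effect difference is the P36 value minus the P14 value. All 15379 expressed autosomal genes, of 24421 genes in the count table, entered it. Of these, 239 (1.55%) had an effect difference with an adjusted p under 0.05 in edgeR's quasi-likelihood test and are called below. The knockout effect was lower at P36 in 166 genes (1.08%) and higher in 73 (0.475%).

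RNA of whole lung was sequenced in 12 libraries, 3 in each of 4 groups: Control P14, CKO P14, Control P36 and CKO P36. Control mice carried floxed Tbx4 alleles (Tbx4fl/fl), and CKO mice were conditional knockouts of Tbx4. The sources used here do not give the Cre driver, and so not the cells that lost the gene. Nothing in the labels ties a library to its own animal, so every p-value measures the spread between samples, which may be technical.

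Depth ran from 17806206 to 28481876 counts. Control P36 replicates 1 and 3 carried the same library number, and so did CKO P14 replicates 2 and 3. Biological coefficients of variation of these pairs were 2.02% and 3.89%, against 10.6% to 27.5% for the other 10 pairs within groups. All 6 P14 libraries and Control P36 replicates 1 and 3 had high counts of Xist, the RNA of the inactive X chromosome. Control P36 replicate 2 and all 3 CKO P36 libraries had high counts of Y-linked genes instead, so sex and genotype went together at P36 in all but 1 library. CKO P36 replicate 3 was high in adipose and airway secretory genes, with Adipoq at 60.6 CPM (counts per 1000000 counts) and Bpifa1 at 198 CPM. The markers of surfactant-making alveolar type 2 cells summed to 9150 to 26370 CPM in every library, with all 15 listed markers above the filter on low counts.

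The calls depend on how those libraries are counted. With the libraries of each shared number summed, so that each pair counts as 1 sample, 0 genes passed in edgeR, 1931 had an unadjusted p under 0.05 and the smallest adjusted p was 0.256. With a term for sex, 0 passed, 2147 had an unadjusted p under 0.05 and the smallest adjusted p was 0.158. The unadjusted count with the 12 libraries taken apart was 3252. Sex varied only within Control P36, so the term for sex sets the CKO P36 libraries against Control P36 replicate 2 alone. Sizes moved less than calls, though both fits reuse the libraries that picked the called genes. All 239 genes kept their sign with libraries summed and with the term for sex. The median ratio to the value given here was 0.959 with libraries summed and 0.899 with the term for sex. The 10th and 90th percentiles of the ratio were 0.897 and 1.04 with libraries summed. With the term for sex they were 0.724 and 1.09, so some genes shrank by more than the median. The effect differences below are therefore given with their standard error (SE) from the fit of all 12 libraries, and no named gene passed once the shared numbers were summed. Genotype effects at P14 and at P36, and the counts of genes passing at each age, came from the same fit. It counted shared numbers apart and had no term for sex. How those calls at each age fare with summed libraries or the term for sex is not given here.

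Of single libraries, leaving out Control P14 replicate 2 left 24 calls, Control P14 replicate 3 left 6, CKO P14 replicate 2 left 0, CKO P14 replicate 3 left 1, Control P36 replicate 1 left 0, Control P36 replicate 3 left 0, CKO P36 replicate 2 left 0 and CKO P36 replicate 3 left 103. Where 0 were left in edgeR, 2839, 2596, 2429 and 2686 genes, in that order, had an unadjusted p under 0.05. The count rose to 384 without Control P14 replicate 1, 460 without CKO P14 replicate 1 and 686 without Control P36 replicate 2. DESeq2 called 1005 genes on the same counts, 237 of the 239 among them, and limma-voom called 97. Scaling by library totals alone gave 163 calls, of which 49.1% were higher at P36, against 30.5% with TMM scaling.

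**Figure D1:**
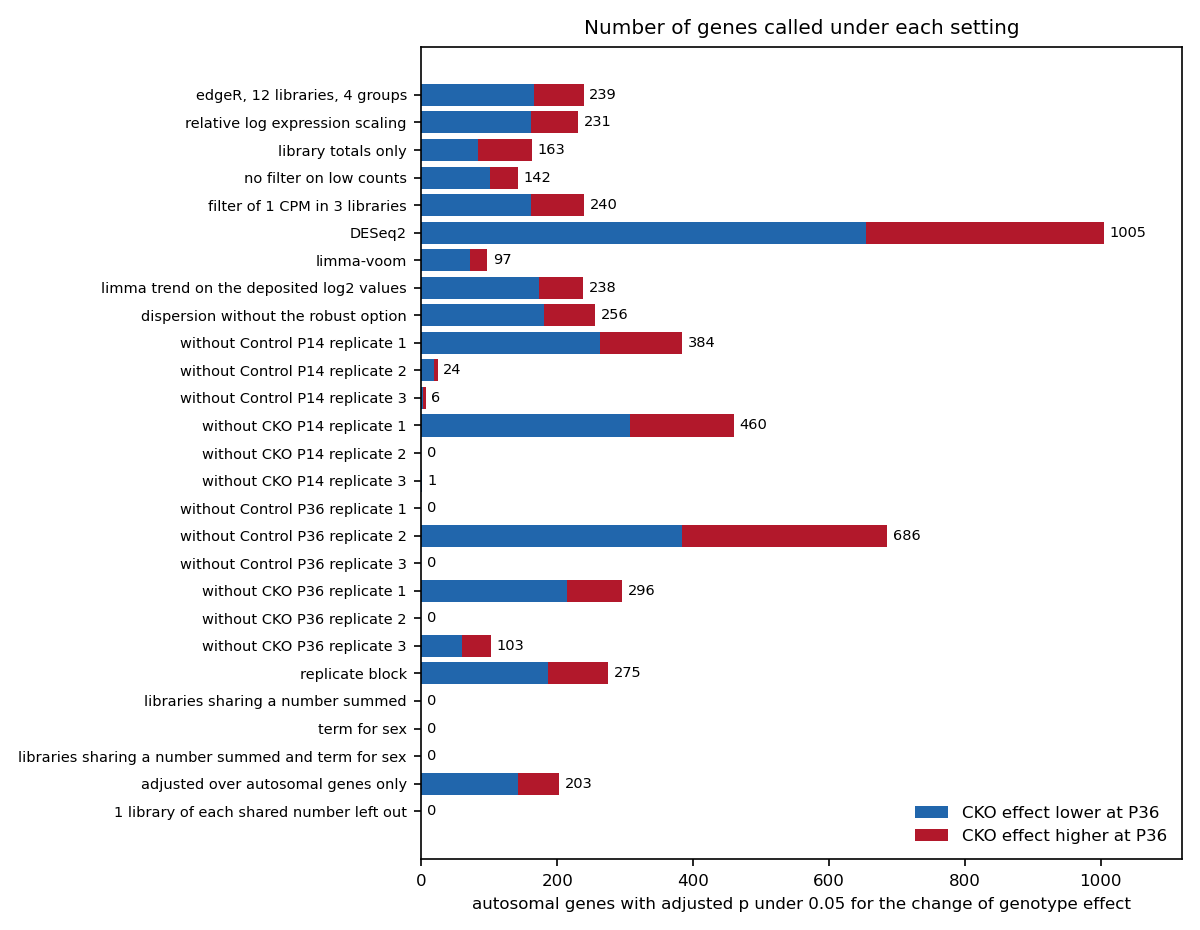
Number of autosomal genes called for a change of the genotype effect (x axis) under each setting (y axis), split into genes whose CKO effect was lower (blue) and higher (red) at P36. The count was 239 with 12 libraries in 4 groups, 0 with libraries of a shared number summed and 686 without Control P36 replicate 2.

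Tbx4 is a T-box gene whose product controls transcription in the mesenchyme of the growing lung. The weeks between the ages compared take the mouse lung from the phase when septa divide the air sacs into alveoli, with active deposition of collagen and elastin, to a largely mature organ. Over the same time resident and recruited immune cells fill the lung: macrophages settle in the air spaces, and dendritic cells, which show peptides to T cells on MHC class II molecules, and natural killer cells accumulate. Interferons raise a shared set of genes in these and other cells through response elements near the start of transcription.

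Tbx4 itself, chromosome 11, 85890063 to 85916097 in mm10, stood at 157, 110.3 and 134 CPM in the Control libraries and 129, 123 and 111 CPM in the CKO libraries at P14. At P36 it stood at 64.4, 79.8 and 62.7 CPM in the Control libraries and 87.4, 82.8 and 67.2 CPM in the CKO libraries. Control and CKO libraries overlapped at both ages. Its effect difference was 0.34 ± 0.20 (adjusted p = 0.34, edgeR). The counts give 1 total for the whole gene, so transcripts without the deleted part, if made, would be counted too. Whether such transcripts were present was not tested. The labels are therefore not checked by this gene, and every direction below is that of the libraries labelled CKO.

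Among the called genes were groups known to respond to interferons and genes of MHC class II, and the promoters of 4 of them are shown because their letters hold the elements these groups are known for. Each window runs from 250 bases before to 50 bases after the RefSeq start site (build GRCm38.p6), is read on the strand of the gene, and is written 5′ to 3′ with motif matches in capitals.
Ifit1, plus strand, chr19:34640639-34640938: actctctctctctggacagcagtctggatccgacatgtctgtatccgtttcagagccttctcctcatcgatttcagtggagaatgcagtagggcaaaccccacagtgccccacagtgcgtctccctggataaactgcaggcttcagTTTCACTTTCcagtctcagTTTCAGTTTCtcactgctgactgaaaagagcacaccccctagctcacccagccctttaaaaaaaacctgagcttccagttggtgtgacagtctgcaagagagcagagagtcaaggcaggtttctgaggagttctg
Ifit3, plus strand, chr19:34583279-34583578: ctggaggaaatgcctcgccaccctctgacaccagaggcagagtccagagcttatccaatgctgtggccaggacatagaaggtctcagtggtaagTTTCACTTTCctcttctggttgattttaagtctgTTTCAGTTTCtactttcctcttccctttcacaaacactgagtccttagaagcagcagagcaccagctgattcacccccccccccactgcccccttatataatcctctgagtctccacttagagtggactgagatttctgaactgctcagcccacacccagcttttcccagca
Gbp5, plus strand, chr3:142496684-142496983: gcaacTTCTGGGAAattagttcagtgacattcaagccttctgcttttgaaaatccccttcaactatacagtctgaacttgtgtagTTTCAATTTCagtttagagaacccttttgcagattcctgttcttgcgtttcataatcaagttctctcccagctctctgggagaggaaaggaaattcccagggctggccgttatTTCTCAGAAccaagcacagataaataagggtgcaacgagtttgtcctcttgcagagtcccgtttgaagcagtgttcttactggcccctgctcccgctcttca
H2-Aa, minus strand, chr17:34287774-34288073: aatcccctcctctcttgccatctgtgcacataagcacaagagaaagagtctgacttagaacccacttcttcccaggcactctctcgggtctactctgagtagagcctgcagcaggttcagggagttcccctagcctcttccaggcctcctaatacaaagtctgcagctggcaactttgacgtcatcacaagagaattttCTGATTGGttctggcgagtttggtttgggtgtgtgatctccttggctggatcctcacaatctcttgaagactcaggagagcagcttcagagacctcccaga
In Ifit1 the capitals mark matches to the core of the interferon-stimulated response element, GAAA, any 2 bases and GAAA on either strand, that start -104 and -85 bases from the start site. Ifit3 had the same core at -156 and -122. Gbp5 had it at -165, and also had the gamma-activated site TTCNNNGAA, the element of STAT factors, at -245 and -52. The capitals in H2-Aa mark the class II Y box CTGATTGG at -51. No matches in these 4 windows overlapped. Among other called class II genes, the windows of H2-DMa and H2-Ob held none of these motifs. The Y box also lay at -11 in Psmb9, a gene of class I presentation.

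These motifs are common enough that a match describes letters and nothing more. The interferon core occurred in windows of 10.2% of the 137 lower genes with a RefSeq window, 0 of 58 higher genes and 3.83% of 11377 tested autosomal genes. The gamma-activated site occurred in 16.1% of the lower genes, 5.17% of the higher genes and 8.61% of tested genes. The class II Y box was at 4.38%, 6.9% and 6.17%, and the T-box motif AGGTGTGA at 0 of 137, 3.45% (Gtf3c5 and Meg3) and 1.13%. Over all 27025 genes in the table the shares were 3.99% for the interferon core, 9.55% for the gamma-activated site, 4.7% for the Y box and 1.48% for the T-box motif.

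Most called genes had knockout effects of opposite sign at the ages compared. The signs differed in 206 of the 239 (86.2%), against 57.6% of all autosomal genes tested, and the contrast itself favours such genes. In 124 called genes the genotype effect passed at P14 alone, 103 of them lower at P36, and in 60 it passed at P36 alone, 30 in each direction. In 52 it passed at neither age. It passed at both ages with opposite signs in 3 genes, Cd200, Pi4k2b and Ctgf, and in 0 genes at both ages with the same sign. The effect differences ran from 0.34 to 6.52 in size, with a median of 0.83, and 87 were at least 2-fold. Across all 15379 genes the log2 fold changes at P14 and P36 had a Pearson r of -0.0728 and a Spearman rho of -0.115, as a description over genes, which are not replicates.

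**Figure D2:**
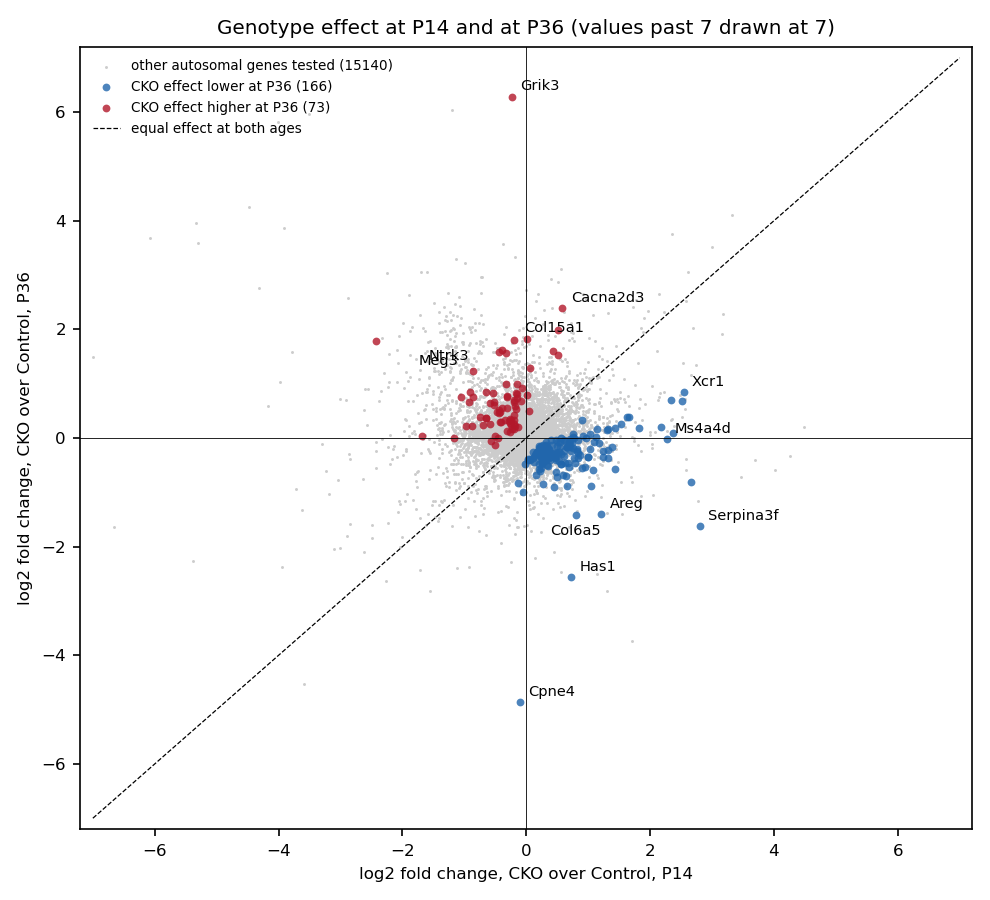
Log2 fold change of CKO over Control at P14 (x axis) and at P36 (y axis) for each autosomal gene tested; blue and red points are the 166 and 73 genes whose effect was lower or higher at P36, grey points the rest, and the dashed line marks equal effects. Most blue points lie right of and below 0, where the effect was positive at P14 and negative at P36.

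Many of the genes with a lower knockout effect at P36 were genes of immune cells. Of 247 tested genes in 16 immune lists, 24 (9.72%) were called lower at P36, against 1.08% of all autosomal genes, and 1 (Fscn1) higher, against 0.475%. At P14 63 of them rose in CKO and 5 fell (4.39% of all autosomal genes passed), against 3.28% and 1.11% of all autosomal genes, and at P36 3 rose and 2 fell (2.31% passed), against 1.51% and 0.806%. The median log2 fold change over the 247 was 0.46 at P14 and -0.07 at P36, and the median effect difference was -0.46, against 0.03 over all autosomal genes. It was -0.48 with libraries of a shared number summed, -0.47 with the term for sex and -0.50 without CKO P36 replicate 3. In bulk lung fewer cells of a type and less RNA per cell cannot be told apart.

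Ptprc encodes CD45, the phosphatase on the surface of nearly all blood-derived immune cells. At P14 it stood at 126, 116 and 122 CPM in the Control libraries and 183, 168 and 179 CPM in the CKO libraries. At P36 it stood at 295, 296 and 297 CPM in the Control libraries and 287, 262 and 245 CPM in the CKO libraries. Every CKO library was above every Control library at P14 and below every Control library at P36. Ptprc rose at P14 (log2 fold change 0.54 ± 0.07 (SE), adjusted p = 0.00191 in edgeR), was at -0.16 ± 0.07 at P36 (adjusted p = 0.244), and had an effect difference of -0.70 ± 0.09 (adjusted p = 0.0212). Cd53, a tetraspanin of white blood cells, was at 35.8, 30.6 and 35.5 CPM in Control and 54.1, 49.8 and 51.8 CPM in CKO at P14 and at 99.2, 84.0 and 100.4 CPM in Control and 83.0, 69.9 and 73.9 CPM in CKO at P36. Its libraries did not overlap at either age, and its effect difference was -0.94 ± 0.13 (adjusted p = 0.0212). Libraries failed to overlap at both ages, with opposite signs, in 2.89% of all autosomal genes. With each age taken by itself, they failed to overlap in 24.1% at P14 and 22.4% at P36.

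Ccr2, the receptor that draws monocytes out of the bone marrow, had the smallest adjusted p of all. Its levels were 20.6, 21.3 and 20.9 CPM in the Control libraries and 56.9, 66.2 and 72.0 CPM in the CKO libraries at P14, and 70.3, 61.0 and 73.9 CPM in the Control libraries and 94.6, 84.4 and 88.7 CPM in the CKO libraries at P36. CKO was above Control without overlap at both ages, and the gap was wider at P14 than at P36. The log2 fold change was 1.63 ± 0.10 at P14 (adjusted p = 2.17e-05) and 0.38 ± 0.09 at P36 (adjusted p = 0.0525), and the effect difference -1.25 ± 0.13 (adjusted p = 0.0122, edgeR). It was the 1 member called of 14 monocyte markers, of which 5 rose and 1 fell at P14. Their median effect difference was -0.38, with 10 negative and 4 positive. Unlike Ccr2, their summed level at P14 was lower in CKO (3148, 2900 and 2907 CPM) than in Control (4197, 3215 and 4136 CPM). Their median log2 fold change at P14 was 0.40, so the sum and the median differed in direction. At P36 0 of the 14 passed in edgeR (3 at an unadjusted p under 0.05, 1 in DESeq2 and 0 in limma-voom). In Ccr2 the effect difference was -1.18 with libraries of a shared number summed and -1.09 with the term for sex.

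Dendritic cell markers had 2 of 15 members called lower, Xcr1 and Clec9a, and 1 higher, Fscn1. At P14 8 of the 15 rose, and at P36 0 passed in edgeR (8 at an unadjusted p under 0.05, 4 in DESeq2 and 1 in limma-voom). Xcr1, the chemokine receptor of cross-presenting dendritic cells, was at 1.66, 2.12 and 2.58 CPM in Control and 8.95, 13.7 and 14.3 CPM in CKO at P14 and at 7.56, 5.35 and 6.73 CPM in Control and 12.8, 12.2 and 10.2 CPM in CKO at P36. CKO libraries were above all Control libraries at both ages. The log2 fold change was 2.54 ± 0.22 at P14 and 0.84 ± 0.20 at P36, an effect difference of -1.70 ± 0.30 (adjusted p = 0.0322). Clec9a, a receptor for dead cells on the same dendritic cells, stood at 3.79, 3.4 and 4.21 CPM in Control and 11.8, 22.6 and 23.5 CPM in CKO at P14 and at 9.29, 7.82 and 9.79 CPM in Control and 14.4, 15.4 and 13.7 CPM in CKO at P36. The effect difference of Clec9a was -1.66 ± 0.31 (adjusted p = 0.0371). Fscn1, the actin bundler of mature dendritic cells that other cells make too, went the other way, with -0.42 at P14, 0.47 at P36 and a difference of 0.89 ± 0.18 (adjusted p = 0.0422). The median effect difference of the 15 markers was -1.11, and -0.66 with the term for sex.

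Most genes of MHC class II presentation rose at P14 in CKO and did not differ past the threshold at P36. Of 11 tested, 8 rose at P14 and 0 passed in edgeR at P36 (1 each at an unadjusted p under 0.05, in DESeq2 and in limma-voom). In the comparison of ages 4 were called lower: H2-Ob, H2-Aa, H2-Ab1 and H2-DMa. H2-Aa, the alpha chain of a class II molecule, stood at 134, 101 and 132 CPM in the Control libraries and 245, 340.4 and 333 CPM in the CKO libraries at P14. At P36 it stood at 393, 328 and 393 CPM in the Control libraries and 503, 380.0 and 368 CPM in the CKO libraries. The CKO libraries were all higher than Control at P14, and the groups overlapped at P36. Its log2 fold change was 1.32 ± 0.17 at P14 (adjusted p = 0.00234, edgeR) and 0.17 ± 0.16 at P36 (adjusted p = 0.648), an effect difference of -1.16 ± 0.23 (adjusted p = 0.0436). H2-Ab1, its beta chain partner, went from 1.43 at P14 to 0.18 at P36 (difference -1.25 ± 0.26, adjusted p = 0.048). H2-DMa, which helps load peptides, went from 1.04 to 0.08 (-0.95 ± 0.21, adjusted p = 0.0486), and was -0.63 with summed libraries plus the sex term.

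H2-Ob encodes a chain of H2-O, which restrains peptide loading. It stood at 8.0, 8.48 and 9.04 CPM in Control and 12.3, 11.1 and 11.7 CPM in CKO at P14 and at 32.4, 28.6 and 32.4 CPM in Control and 26.6, 22.9 and 23.01 CPM in CKO at P36, without overlap at either age. It rose at P14 (0.46, adjusted p = 0.0177) and was at -0.37 at P36 (adjusted p = 0.0532), and its effect difference was -0.83 ± 0.13 (adjusted p = 0.0247, edgeR). The median over the 11 class II genes was 0.96 at P14 and 0.13 at P36. Their median effect difference was -0.83, and 10 of 11 were negative, with H2-Eb2 the exception. Reads from near-identical class II genes may have been split between copies by the authors' counting.

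In MHC class I presentation 1 of 14 genes was called, Psmb9, a subunit of the immunoproteasome that cuts peptides. Psmb9 stood at 4.93, 5.08 and 5.89 CPM in Control and 8.67, 9.65 and 9.7 CPM in CKO at P14 and at 14.1, 14.2 and 12.8 CPM in Control and 12.5, 11.3 and 11.3 CPM in CKO at P36. The order of the groups turned, with CKO above Control at P14 and below it at P36 and no overlap at either age. Its effect was 0.82 ± 0.10 at P14 (adjusted p = 0.00217) and -0.23 ± 0.10 at P36 (adjusted p = 0.267), and the effect difference was -1.05 ± 0.14 (adjusted p = 0.0212, edgeR). All 14 class I genes had a negative effect difference, with a median of -0.59. That compares with 46.2% of all autosomal genes that were negative.

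**Figure D3:**
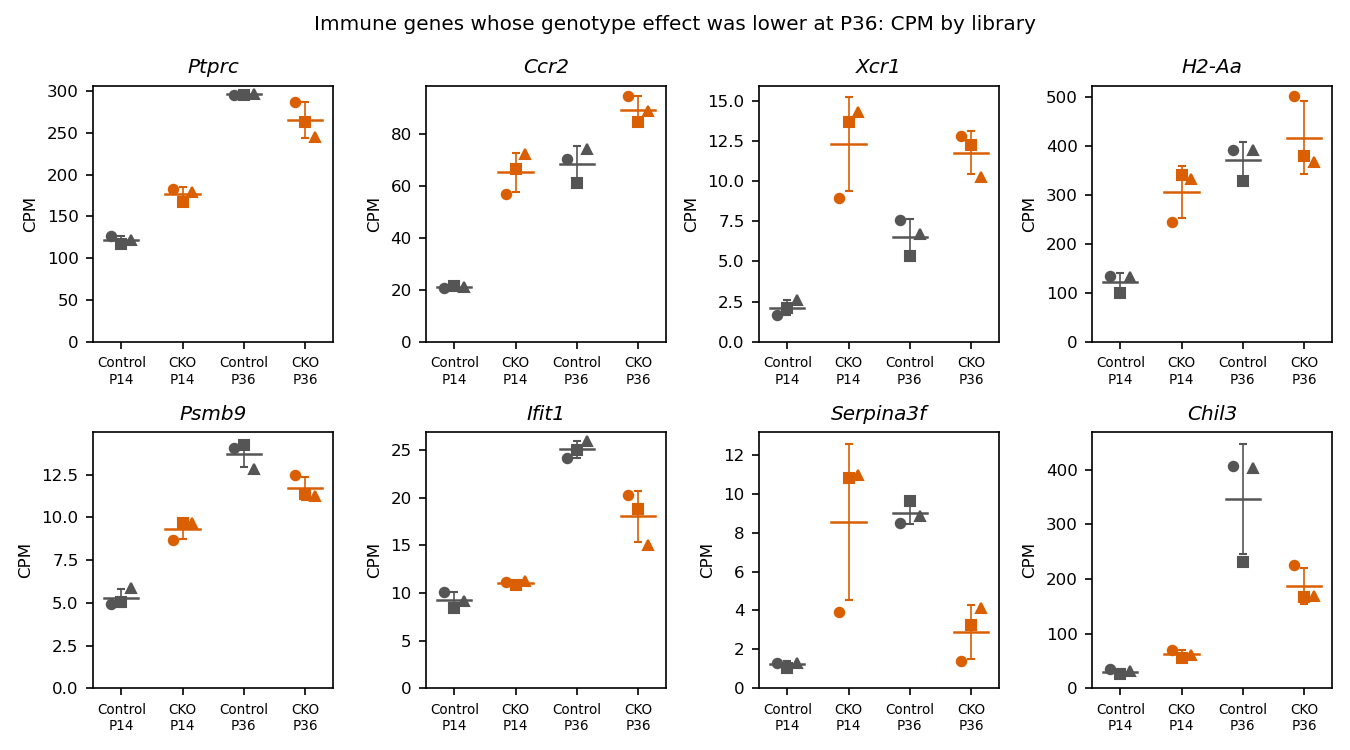
Level in CPM (y axis, from 0) of 8 immune genes in each of the 4 groups (x axis); circles, squares and triangles are replicates 1, 2 and 3, horizontal lines are group means and bars are 1 SD. Ptprc and Psmb9 lie higher in CKO at P14 and lower in CKO at P36, while Ccr2 and Xcr1 lie higher in CKO at both ages.

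Most genes that interferons induce had negative effect differences, with few calls. Of 26 genes of the type I interferon response, 2 were called lower, Ifit1 and Ifit3, and 24 had a negative effect difference. At P14 0 of the 26 passed in edgeR (11 at an unadjusted p under 0.05, 4 in DESeq2 and 0 in limma-voom), and at P36 Ifit1 and Ifit3 fell. Both encode proteins that bind viral RNA or the machinery that translates it. Ifit3 stood at 12.1, 10.1 and 12.7 CPM in Control and 13.1, 15.5 and 15.3 CPM in CKO at P14 and at 35.9, 36.7 and 34.9 CPM in Control and 25.5, 28.9 and 22.2 CPM in CKO at P36. The groups did not overlap at either age, CKO being higher at P14 and lower at P36. Ifit3 fell at P36 (-0.49 ± 0.11, adjusted p = 0.0439, edgeR), was at 0.33 ± 0.12 at P14 (adjusted p = 0.153), and had an effect difference of -0.82 ± 0.16 (adjusted p = 0.0414). Ifit1 was at 10.1, 8.43 and 9.2 CPM in Control and 11.1, 10.8 and 11.2 CPM in CKO at P14 and at 24.2, 25.0 and 25.9 CPM in Control and 20.2, 18.8 and 14.98 CPM in CKO at P36, with a difference of -0.74 ± 0.16 (adjusted p = 0.0462). Their response element cores are marked in the promoters above.

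The interferon-gamma response, the set induced by the cytokine of T cells and natural killer cells, had 2 of 18 genes called lower, Gbp5 and Iigp1. Both encode GTPases that act on membranes around microbes. At P14 7 of the 18 rose and 1 fell, and at P36 0 passed in edgeR (1 at an unadjusted p under 0.05, 1 in DESeq2 and 0 in limma-voom). Gbp5 was at 6.01, 6.9 and 7.1 CPM in Control and 9.4, 11.4 and 12.4 CPM in CKO at P14 and at 16.5, 16.8 and 14.7 CPM in Control and 15.1, 13.3 and 12.1 CPM in CKO at P36. CKO was above Control without overlap at P14, and the groups overlapped at P36. The effect difference of Gbp5 was -0.98 ± 0.18 (adjusted p = 0.0324) and that of Iigp1 was -1.24 ± 0.26 (adjusted p = 0.0478, edgeR). The median over the 18 genes was 0.75 at P14 and -0.12 at P36, with a median effect difference of -0.996. Their summed level at P14 was 420, 416 and 487 CPM in Control and 480, 749 and 787 CPM in CKO. By that sum CKO P14 replicate 1 lay within the Control range, and replicates 2 and 3 share a library number. Gbp and Ifit genes lie in families of similar copies whose reads may be shared.

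Alveolar macrophages, the phagocytes of the air spaces, had 3 of 15 markers called lower: Chil3, Siglecf and Mrc1. Of the 15, 11 had a negative and 4 a positive effect difference, with a median of -0.34. Chil3, a chitinase-like protein, stood at 34.5, 25.4 and 31.5 CPM in Control and 70.7, 56.0 and 61.3 CPM in CKO at P14 and at 406, 231 and 402 CPM in Control and 226, 167 and 168 CPM in CKO at P36. CKO libraries were all higher at P14 and all lower at P36, though CKO replicate 1 came close to Control replicate 2 at P36. The effect was 1.04 ± 0.22 at P14 (adjusted p = 0.0268) and -0.89 ± 0.21 at P36 (adjusted p = 0.0573), an effect difference of -1.93 ± 0.31 (adjusted p = 0.0299, edgeR), which was -1.34 with the term for sex. Siglecf, a sialic acid-binding lectin, had a difference of -1.08 ± 0.20 (adjusted p = 0.0339). Mrc1, the mannose receptor, had -0.87 ± 0.17 (adjusted p = 0.0414). Of 15 interstitial macrophage markers, the lectin gene Mgl2 was called (-1.10 ± 0.20, adjusted p = 0.0324), and 5 of the 15 rose at P14. Their median effect difference was -0.285, with 11 negative and 4 positive.

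Natural killer and innate lymphoid markers had 2 of 14 members called lower, Klrb1c and Rora, and 7 rose at P14. At P36 0 of the 14 passed in edgeR (2 at an unadjusted p under 0.05, 1 in DESeq2 and 0 in limma-voom). Klrb1c, the NK1.1 receptor, stood at 0.853, 0.789 and 1.1 CPM in Control and 2.64, 2.63 and 1.62 CPM in CKO at P14 and at 5.76, 7.52 and 5.2 CPM in Control and 5.97, 4.47 and 5.4 CPM in CKO at P36. At P14 CKO lay above Control without overlap, and at P36 the groups overlapped. The effect difference was -1.54 ± 0.33 (adjusted p = 0.0473). Its neighbour Klrb1b, a related lectin receptor, went from 2.37 at P14 to 0.10 at P36 (-2.27 ± 0.39, adjusted p = 0.0322, edgeR). Reads of these near-copies may be shared. Rora, a nuclear receptor needed by innate lymphoid cells and made by many other cells, had -0.49 ± 0.11 (adjusted p = 0.0489). The median effect difference over the 14 markers was -1.11, and their summed level was 209 to 254 CPM in Control and 281 to 315 CPM in CKO at P14, and 323 to 327 CPM and 284 to 302 CPM at P36.

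Secreted immune factors had fewer calls. Of 30 cytokines and chemokines, Csf1, the growth factor of macrophages, and Cxcl14, a chemokine of fibroblasts and epithelium, were called lower. The 30 had 20 negative and 10 positive effect differences, with a median of -0.36. Csf1 went from 0.40 ± 0.07 at P14 to -0.03 ± 0.06 at P36, a difference of -0.43 ± 0.09 (adjusted p = 0.0462). Cxcl14 was at 65.5, 41.5 and 58.3 CPM in Control and 80.5, 75.2 and 75.0 CPM in CKO at P14 and at 152, 121 and 150.02 CPM in Control and 109, 89.3 and 75.1 CPM in CKO at P36. Neither age passed for Cxcl14, and its effect difference was -1.11 ± 0.24 (adjusted p = 0.0486, edgeR). Of 24 complement genes 11 rose at P14 and 2 at P36, and 1 was called lower, Itgax, a chain of complement receptor 4 (-0.96 ± 0.18, adjusted p = 0.0375). The median effect difference of complement was -0.44.

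The acute-phase and injury list had 3 of 16 genes called lower: Serpina3f, Serpina3g and Chil1. Serpina3f encodes a serine protease inhibitor. It stood at 1.33, 1.04 and 1.31 CPM in Control and 3.94, 10.8 and 10.9 CPM in CKO at P14 and at 8.51, 9.6 and 8.86 CPM in Control and 1.39, 3.26 and 4.1 CPM in CKO at P36. CKO was higher without overlap at P14 and lower without overlap at P36, and CKO replicate 1 was the lowest CKO library at both ages. Serpina3f rose at P14 (2.80 ± 0.44, adjusted p = 0.00555), was at -1.62 ± 0.40 at P36 (adjusted p = 0.0618), and had an effect difference of -4.42 ± 0.59 (adjusted p = 0.0212, edgeR). Serpina3g, which lies beside it, was at 2.98, 2.02 and 2.79 CPM in Control and 6.19, 7.98 and 6.88 CPM in CKO at P14 and at 11.3, 10.5 and 9.83 CPM in Control and 5.33, 6.88 and 9.16 CPM in CKO at P36, a difference of -1.996 ± 0.28 (adjusted p = 0.0237). These inhibitors are near-identical and their annotated spans overlap, so their reads may be split. Chil1, a chitinase-like protein of injured tissue, had -0.81 ± 0.16 (adjusted p = 0.0422). The median effect difference of the list was -0.37 and turned to 0.07 with the term for sex.

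Markers of neutrophils, T cells and B cells gave no call in edgeR. Of 12 neutrophil markers 0 were called (5 at an unadjusted p under 0.05), and S100a8 and S100a9, which form calprotectin, had effect differences of -1.30 ± 0.46 (adjusted p = 0.142) and -1.33 ± 0.43 (adjusted p = 0.116). Of 13 T cell markers 0 were called (6 unadjusted), with Cd4 at -0.78 ± 0.24 (adjusted p = 0.107) and Cd8a at -0.60 ± 0.21 (adjusted p = 0.131). Of 12 B and plasma cell markers 0 were called (0 unadjusted), with Ms4a1, the CD20 antigen, at -0.74 ± 0.47 (adjusted p = 0.394). DESeq2 and limma-voom also called 0 in each of the 3 lists. The median effect differences were -0.57, -0.28 and -0.10 for the lists in that order, and that of B cells was 0.00 with the term for sex. Without CKO P36 replicate 3 they were -0.92, -0.09 and -0.05.

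**Figure D4:**
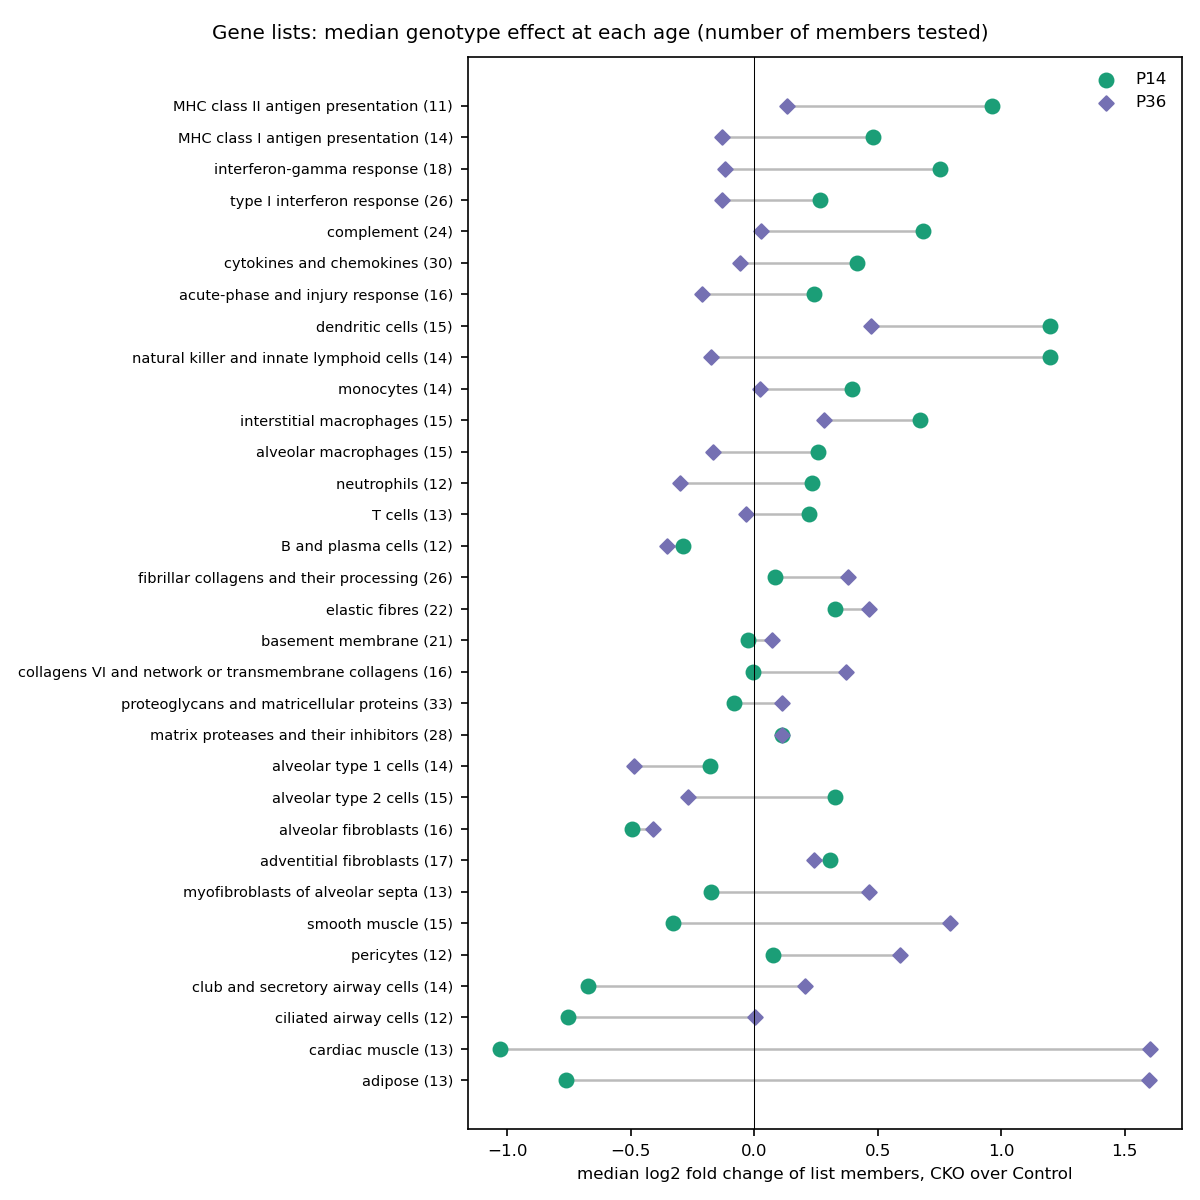
Median log2 fold change of CKO over Control at P14 (green circles) and P36 (purple diamonds) on the x axis, for gene lists on the y axis with the number of members tested in brackets. Immune lists lie further right at P14 than at P36, collagen lists and smooth muscle further right at P36; adipose, club cell and cardiac lists at P36 take in CKO P36 replicate 3.

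Matrix genes mostly had positive effect differences, of smaller size. Of 146 genes in 6 matrix lists, 5 (3.42%) were called higher at P36, against 0.475% of all autosomal genes, and 4 (2.74%) lower, against 1.08%. The higher genes were Col5a1, Fbln2, Col18a1, Col6a3 and Col15a1, and the lower ones Ctgf, Has1, Col6a5 and Timp3. At P14 19 of the 146 rose and 6 fell, against 3.28% and 1.11% of all autosomal genes, and at P36 30 rose and 6 fell, against 1.51% and 0.806%. The median effect difference was 0.19, and 70.5% were positive, against 53.8% of all autosomal genes.

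Col5a1 encodes a chain of type V collagen, which sets the width of collagen fibrils. At P14 it stood at 318, 349 and 316 CPM in the Control libraries and 340.5, 312 and 284 CPM in the CKO libraries. At P36 it stood at 84.2, 109.7 and 83.0 CPM in the Control libraries and 168, 159 and 194 CPM in the CKO libraries. The groups overlapped at P14, and at P36 every CKO library was above every Control library. Of all autosomal genes, 22.4% had no overlap at P36 in either direction. The level in Control fell with age by more than in CKO, and the genotype effect went from -0.07 ± 0.11 at P14 (adjusted p = 0.791) to 0.91 ± 0.12 at P36 (adjusted p = 0.00259). The effect difference was 0.98 ± 0.16 (adjusted p = 0.0299, edgeR), and 0.73 with the term for sex. Col5a1 was the 1 call among 26 genes of fibrillar collagens and their processing, of which 4 rose at P14, and 10 rose and 1 fell at P36.

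Fbln2 encodes fibulin-2, a matrix glycoprotein that binds elastic fibres and basement membranes. It was at 63.4, 71.3 and 81.2 CPM in Control and 72.5, 62.0 and 60.5 CPM in CKO at P14 and at 27.98, 22.99 and 30.3 CPM in Control and 50.8, 59.0 and 51.4 CPM in CKO at P36. Control and CKO overlapped at P14, while at P36 the lowest CKO library was well above the highest Control library. Fbln2 rose at P36 (0.99 ± 0.12, adjusted p = 0.00215), was at -0.15 ± 0.12 at P14, and had an effect difference of 1.13 ± 0.17 (adjusted p = 0.0237, edgeR). With the term for sex it was 1.37. Of 22 elastic fibre genes Fbln2 alone was called, while 4 rose and 1 fell at P14 and 7 rose at P36.

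Collagen VI and network collagens had 2 of 16 genes called higher and 1 lower. Col6a3 encodes a chain of the beaded collagen VI filaments around cells. It stood at 737, 574 and 680.4 CPM in Control and 634, 639 and 615 CPM in CKO at P14 and at 214, 284 and 213 CPM in Control and 397, 368 and 378 CPM in CKO at P36. The groups overlapped at P14 and were apart at P36, and the effect difference was 0.76 ± 0.16 (adjusted p = 0.0465, edgeR), 0.50 with the term for sex. Col15a1, a collagen that links basement membranes to fibrils, was at 51.9, 115 and 98.0 CPM in Control and 80.4, 78.6 and 72.0 CPM in CKO at P14 and at 22.1, 18.5 and 20.9 CPM in Control and 62.8, 53.4 and 97.7 CPM in CKO at P36. Control P14 replicate 1 was low and CKO P36 replicate 3 high for Col15a1, yet the P36 groups were apart. Its effect difference was 1.995 ± 0.40 (adjusted p = 0.046), and 1.70 without CKO P36 replicate 3.

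Col18a1, the basement membrane collagen whose fragment is endostatin, stood at 75.5, 66.6 and 77.7 CPM in Control and 71.5, 64.9 and 56.3 CPM in CKO at P14 and at 31.1, 41.1 and 32.0 CPM in Control and 59.9, 47.9 and 57.3 CPM in CKO at P36. CKO was above Control at P36 without overlap, and the effect difference was 0.86 ± 0.18 (adjusted p = 0.0462, edgeR). It was 0.56 with summed libraries plus the sex term. Col18a1 was the 1 call of 21 basement membrane genes. Outside the fixed lists Col27a1, another fibrillar collagen, had an effect difference of 0.90, Adamts12, a matrix protease, 1.16, and Gpc6, a glypican, 1.31. These 3 were chosen after their values were seen.

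The 4 matrix genes called lower had positive log2 fold changes at P14, and Ctgf and Timp3 rose there. Ctgf encodes connective tissue growth factor, a matricellular protein. It was at 179.6, 174 and 194 CPM in Control and 216, 320.1 and 324 CPM in CKO at P14 and at 243, 183 and 242 CPM in Control and 123, 135 and 103 CPM in CKO at P36. CKO was above Control at P14 and below it at P36, without overlap at either age. Ctgf rose at P14 (0.65 ± 0.16, adjusted p = 0.0478) and fell at P36 (-0.89 ± 0.16, adjusted p = 0.0197), and its effect difference was -1.54 ± 0.23 (adjusted p = 0.0247, edgeR). Has1, a synthase of hyaluronan, stood at 0.284, 0.296 and 0.421 CPM in Control and 0.619, 0.717 and 0.313 CPM in CKO at P14 and at 2.97, 1.06 and 3.46 CPM in Control and 0.509, 0.368 and 0.377 CPM in CKO at P36, where Control replicate 2 was low among its group. Has1 fell at P36 (-2.57 ± 0.45, adjusted p = 0.0133). The effect difference of Has1 was -3.29 ± 0.69 (adjusted p = 0.0462), and -2.05 with the term for sex.

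Col6a5, a rarer collagen VI chain, was at 5.87, 5.87 and 10.8 CPM in Control and 13.3, 13.3 and 12.5 CPM in CKO at P14 and at 12.8, 19.6 and 13.2 CPM in Control and 4.08, 6.25 and 6.86 CPM in CKO at P36. CKO lay above Control at P14 and below it at P36, and only the fall at P36 passed (-1.41 ± 0.27, adjusted p = 0.022). The effect difference was -2.20 ± 0.38 (adjusted p = 0.0322, edgeR). Within 1 family, then, Col6a3 and Col6a5 had effect differences of opposite sign. Timp3, a matrix-bound inhibitor of proteases, rose at P14 (0.84 ± 0.14, adjusted p = 0.00555) and was at -0.04 ± 0.14 at P36, a difference of -0.88 ± 0.19 (adjusted p = 0.0486).

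**Figure D5:**
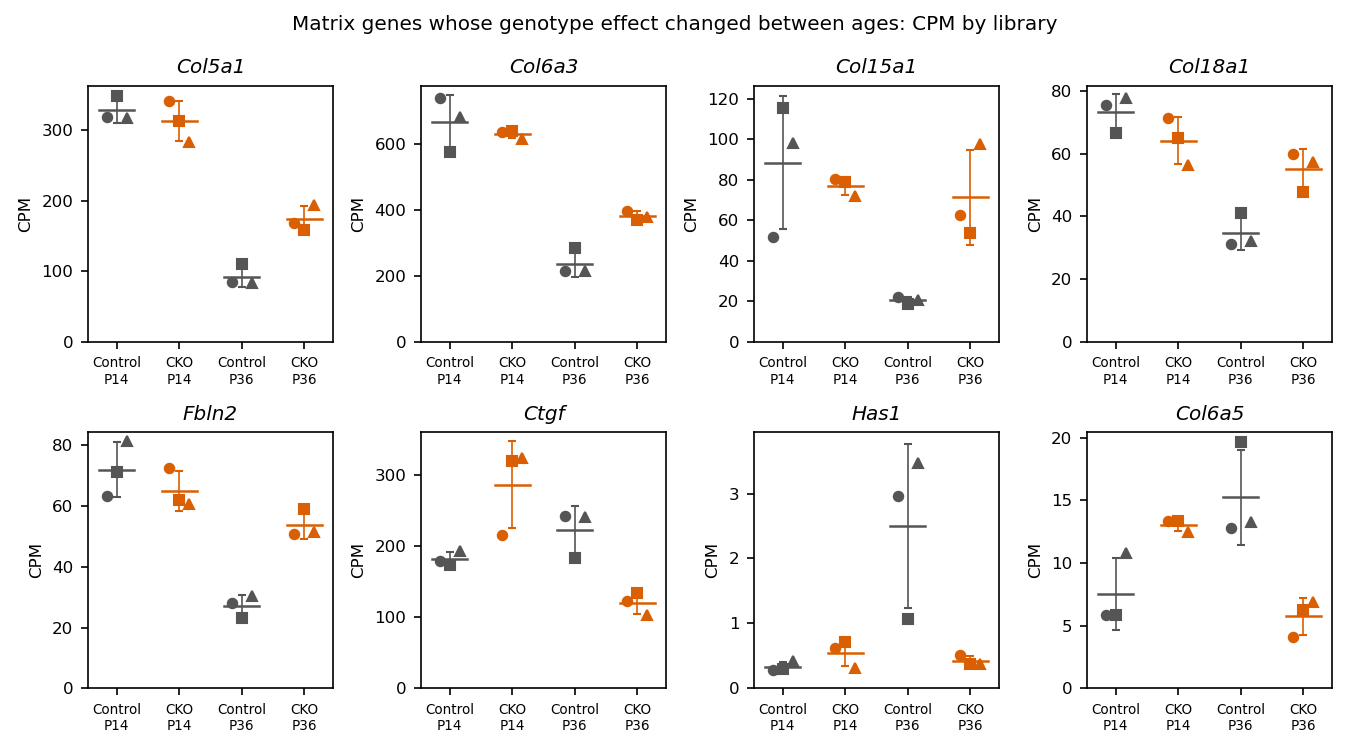
Level in CPM (y axis, from 0) of 8 matrix genes in each of the 4 groups (x axis); circles, squares and triangles are replicates 1, 2 and 3, horizontal lines are group means and bars are 1 SD. In Col5a1, Col6a3, Col15a1, Col18a1 and Fbln2 the groups overlap at P14 and CKO is higher at P36, while Ctgf, Has1 and Col6a5 are lower in CKO at P36.

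The other genes that passed at both ages with opposite signs were Cd200 and Pi4k2b. Cd200 encodes a surface protein that quietens myeloid cells. It stood at 95.6, 94.6 and 99.3 CPM in Control and 111, 115 and 117 CPM in CKO at P14 and at 153, 148 and 161 CPM in Control and 112, 123 and 127 CPM in CKO at P36. Each age was free of overlap, CKO being higher at P14 and lower at P36. Cd200 rose at P14 (0.24 ± 0.06, adjusted p = 0.0409) and fell at P36 (-0.35 ± 0.06, adjusted p = 0.0112), an effect difference of -0.60 ± 0.08 (adjusted p = 0.0212, edgeR). Pi4k2b, a kinase of phosphatidylinositol, was at 150.4, 135 and 122 CPM in Control and 179, 175 and 177 CPM in CKO at P14 and at 213, 189 and 213 CPM in Control and 158, 163 and 141 CPM in CKO at P36. Its effect difference was -0.79 ± 0.12 (adjusted p = 0.0237).

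Nox4 and C1galt1 were likewise higher in CKO at P14 and lower at P36, without overlap at either age. Nox4, an NADPH oxidase of vascular and mesenchymal cells that makes hydrogen peroxide, stood at 85.3, 63.2 and 75.9 CPM in Control and 126, 129 and 144 CPM in CKO at P14 and at 148, 162 and 153 CPM in Control and 136, 124 and 101 CPM in CKO at P36. It rose at P14 (0.83 ± 0.12, adjusted p = 0.0033), was at -0.36 ± 0.12 at P36 (adjusted p = 0.15), and had an effect difference of -1.19 ± 0.17 (adjusted p = 0.0237, edgeR). C1galt1, which builds the core of O-linked sugars, was at 78.8, 77.8 and 77.3 CPM in Control and 98.2, 97.5 and 100.5 CPM in CKO at P14 and at 96.9, 97.1 and 103 CPM in Control and 84.0, 86.8 and 88.3 CPM in CKO at P36. The spread within its groups was small, and its effect difference was -0.54 ± 0.07 (adjusted p = 0.0212).

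Epithelial lists gave few calls. Effect differences were mostly negative in alveolar markers and mostly positive in airway markers, for which CKO P36 replicate 3 was the highest library. Without that library the club cell median went from 1.13 to -0.16 and the ciliated cell median from 0.77 to 0.39. Of 15 alveolar type 2 markers 2 were called lower, Sftpa1 and Lyz2, and all 15 had a negative effect difference, with a median of -0.66 (-0.48 with the term for sex). Sftpa1, surfactant protein A, stood at 776, 541 and 729.9 CPM in Control and 1094, 1091 and 1116 CPM in CKO at P14 and at 2786, 1941 and 2789 CPM in Control and 1863, 1644 and 1719 CPM in CKO at P36. CKO was higher at P14 and lower at P36 without overlap, with Control P36 replicate 2 nearest to CKO. Its effect difference was -1.21 ± 0.22 (adjusted p = 0.0322), and -0.85 with the term for sex. Lyz2, a lysozyme shared with macrophages, had -1.10 ± 0.20 (adjusted p = 0.0324, edgeR). Of 14 alveolar type 1 markers 0 were called (6 at an unadjusted p under 0.05, 4 in DESeq2, 0 in limma-voom) and 3 fell at P36, with Cav1, which forms caveolae, at -0.73 ± 0.19 (adjusted p = 0.0699).

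Mesenchymal lists were mixed. Of 16 alveolar fibroblast markers, Inmt and Cxcl14 were called lower, while at P14 1 rose and 5 fell and at P36 3 fell. Most of the 16 went the other way, with 10 positive and 6 negative effect differences. Their median was 0.11, and -0.03 with the term for sex. Inmt, a methyltransferase, stood at 314, 204 and 304 CPM in Control and 524, 713 and 694 CPM in CKO at P14 and at 1084, 949.7 and 1099 CPM in Control and 1029.9, 748 and 673 CPM in CKO at P36. The CKO libraries were high at P14 and overlapped Control at P36, and the effect difference was -1.59 ± 0.28 (adjusted p = 0.0322, edgeR). Gpm6a, a membrane glycoprotein of mesothelium, nerve and type 1 cells, was called lower (-1.48 ± 0.27, adjusted p = 0.0366). The septal myofibroblast list had 0 of 13 called (4 unadjusted, 2 in DESeq2, 0 in limma-voom), all 13 positive, with Hhip, an inhibitor of Hedgehog ligands, at 1.09 ± 0.35 (adjusted p = 0.119). Of 12 pericyte markers 0 were called (3 unadjusted, 2 in DESeq2, 0 in limma-voom), with Cspg4 at 0.97 ± 0.22 (adjusted p = 0.0508).

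All 15 smooth muscle markers had a positive effect difference, with a median of 1.13, and 1 was called higher, Smtn, which encodes smoothelin. Smtn stood at 96.9, 120.1 and 98.6 CPM in Control and 100.0, 89.2 and 85.9 CPM in CKO at P14 and at 43.1, 58.9 and 42.9 CPM in Control and 79.3, 71.5 and 84.3 CPM in CKO at P36. CKO was higher than Control at P36 without overlap, and the effect difference was 0.90 ± 0.18 (adjusted p = 0.0448, edgeR), 0.57 with summed libraries plus the sex term. The summed level of the 15 markers was 1407 to 1871 CPM in Control P14, 1257 to 1658 in CKO P14, 1039 to 1178 in Control P36 and 1231 to 1852 in CKO P36, with the maximum of the last group in replicate 3. Without that library the median was 0.74. Cardiac muscle markers moved with these, at 390 CPM in Control P14 replicate 1, 5783 and 3864 CPM in replicates 2 and 3, and 3653 CPM in CKO P36 replicate 3, and the part of cardiac tissue in the smooth muscle values was not tested.

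Of 12 markers of ciliated airway cells 0 were called in edgeR (0 at an unadjusted p under 0.05, 0 in DESeq2 and 0 in limma-voom) and 11 had a positive effect difference. Their median was 0.77, 1.195 with the term for sex and 0.39 without CKO P36 replicate 3.

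The adipose and club cell lists, in which CKO P36 replicate 3 stood furthest above the other libraries, are not described as changes with age. That library was also the highest for the complement, neutrophil and ciliated cell lists, which are described above. The median effect difference of 13 adipose markers was 2.37 with that library and -0.61 without it, and that of 14 club cell markers was 1.13 and -0.16. In edgeR 0 genes of either list were called (3 adipose and 1 club cell markers at an unadjusted p under 0.05, 1 and 0 in DESeq2, 0 and 0 in limma-voom).

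Genes with the largest positive differences came from many functions. Meg3, a maternally expressed long noncoding RNA, stood at 86.1, 126 and 109.7 CPM in Control and 70.0, 54.7 and 51.6 CPM in CKO at P14 and at 13.6, 19.4 and 13.05 CPM in Control and 26.9, 32.7 and 48.2 CPM in CKO at P36. CKO was below Control at P14 and above it at P36, without overlap. Its effect was -0.87 ± 0.23 at P14 (adjusted p = 0.064) and 1.23 ± 0.24 at P36 (adjusted p = 0.0274), a difference of 2.10 ± 0.33 (adjusted p = 0.0299, edgeR). Ntrk3, the receptor of neurotrophin-3, was at 39.5, 40.4 and 33.5 CPM in Control and 39.0, 21.8 and 23.2 CPM in CKO at P14 and at 4.56, 5.27 and 3.91 CPM in Control and 10.7, 14.2 and 16.4 CPM in CKO at P36, a difference of 2.02 ± 0.32 (adjusted p = 0.0299). Both genes fell with age in Control and were higher in every CKO library at P36. Ccdc3 had 2.02 ± 0.44, Csmd1, a membrane protein with complement-control domains, 1.90 ± 0.39, Fam131b 1.81 ± 0.38 and Cacna2d3, a calcium channel subunit, 1.81 ± 0.37, with adjusted p of 0.0492, 0.0453, 0.046 and 0.0438.

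The extreme values rest on few counts. Grik3, a kainate receptor subunit, had 46 counts in Control P14, 37 in CKO P14, 2 in Control P36 and 156 in CKO P36, and its effect difference of 6.52 ± 0.83 (adjusted p = 0.0212) depends on the 2 counts. Cpne4, a copine that binds phospholipids, had 2 counts in CKO P36 against 82 in Control P36, with a difference of -4.75 ± 1.03 (adjusted p = 0.048, edgeR). Areg, the growth factor amphiregulin, was at 0.663, 0.888 and 0.946 CPM in Control and 2.98, 1.39 and 1.46 CPM in CKO at P14 and at 5.44, 4.08 and 5.16 CPM in Control and 1.95, 1.47 and 2.13 CPM in CKO at P36. CKO was above Control at P14 and below it at P36 without overlap, and the difference was -2.61 ± 0.43 (adjusted p = 0.0299). Ms4a4d, a membrane protein of immune cells, was at 3.46, 5.77 and 4.21 CPM in Control and 11.7, 25.7 and 27.2 CPM in CKO at P14 and at 33.8, 36.4 and 32.6 CPM in Control and 36.7, 33.8 and 31.3 CPM in CKO at P36, a difference of -2.28 ± 0.38 (adjusted p = 0.0322). Klf6, an immediate early transcription factor, fell at P36 (-0.46 ± 0.08, adjusted p = 0.0116) and had -0.72 ± 0.11 (adjusted p = 0.0247).

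Seen along age, the called genes had a smaller or an opposite change from P14 to P36 in CKO than in Control. Of the 166 lower genes 156 rose with age in Control and 0 fell, and of the 73 higher genes 70 fell and 0 rose, while 20.9% of all autosomal genes rose and 20.9% fell. The median age change was 1.09 in Control and 0.13 in CKO for the lower genes, and -1.20 and -0.23 for the higher genes. Both CKO means lay between the Control P14 and Control P36 means in 169 of the 239 genes (70.7%), against 32.4% of all autosomal genes and 55.3% of those changed with age in Control. The age change in CKO was smaller in the same direction in 155, opposite in 84 and larger in 0. These age changes use the same libraries as the effect difference and are a description of it, with no test.

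In the chromosomal order of tested autosomal genes, called genes were next to each other in 13 runs that held 31 of the 239. Genes that were not tested may lie between them. Of all tested autosomal genes 1.55% were called. In all 13 runs every gene was lower at P36, as were 166 of the 239 called genes. On chromosome 9 Xcr1, Ccr1 and Ccr2 formed a run from 123852315 to 124109140 (mm10) with differences from -1.70 to -1.25. H2-Ob, H2-Ab1 and H2-Aa lay at 34238905 to 34287771 on chromosome 17, and Serpina3g and Serpina3f at 104214544 to 104241934 on chromosome 12. Atg3, Btla, Cd200 and Gcsam formed the run of most genes, 45158829 to 45622867 on chromosome 16. Neighbours that are copies of each other can share reads, which the count table does not resolve.

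None of the signalling lists had a called member in edgeR: BMP (30 genes tested), TGF-beta (21), Wnt (38), Hedgehog (16), FGF (19) and Notch (17), nor did 28 genes of vascular tone and pulmonary hypertension or 21 T-box and mesenchymal transcription factors. Of these 184 genes 43 had an unadjusted p under 0.05, DESeq2 called 16 and limma-voom 0. Scube3, an enhancer of growth factor signalling in the Hedgehog list, was nearest, at 1.36 ± 0.31 (adjusted p = 0.0517). Fstl1, a follistatin-like antagonist of BMP, had 0.48 ± 0.12 (adjusted p = 0.0601), Nos3, the endothelial nitric oxide synthase, 0.94 ± 0.24 (adjusted p = 0.0725), and Tbx2, a relative of Tbx4, 0.53 ± 0.15 (adjusted p = 0.0884). At P36 Fstl1 rose in CKO (0.72 ± 0.08, adjusted p = 0.00178), from 131, 121 and 135 CPM in Control to 219, 202 and 213 CPM in CKO. A p that misses the threshold does not show that these effects were equal at the ages compared.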

How the data were processed

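Libraries of total RNA from mouse lung (12) were made with a KAPA RNA HyperPrep kit, per the labels' protocols. The submitters' processing notes name FastQC, STAR, featureCounts, edgeR and the build mm10, with no versions. The authors deposited counts of reads per gene, which were used as they stand, and a table of log2 values, which served for 1 alternative.

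The test was the robust quasi-likelihood F-test of edgeR 4.0.16 in R 4.3.3 (filterByExpr by group, minimum count 10 and total 15, TMM) in a single fit of 12 libraries and 4 groups. Adjusted p is Benjamini-Hochberg over 15923 genes, with a threshold of 0.05, and 15379 autosomal genes were counted. Of 544 other genes tested, 17 passed and are not described. An error after ± is a standard error in log2 units. CPM are counts per 1000000 counts, scaled by TMM factors. Sex was read from Xist and Y-linked counts. Libraries of a shared number were counted apart, as labelled, and summed in an alternative.

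Named were called genes with at least 1 CPM in a group, leaving out Tbx4, predicted gene models (such as symbols of Gm with digits), microRNAs and ribosomal RNAs: the 8 largest differences each way, genes that passed at both ages with opposite signs, filled to 10 with genes of opposite sign and no overlap, genes that passed with the term for sex (0 did), and up to 4 called members of each of 56 gene lists (2 where none was called). The genes, lists and rules were chosen with earlier results of these data known. Alternatives used DESeq2 1.42.0 and limma 3.58.1. Promoters came from RefSeq windows (GRCm38.p6). The scripts were tested on simulated counts.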

Additional observations from a re-analysis of the deposited data

Results flagged for a closer look

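The genotype effect differed between P14 and P36 by its own test, the difference of the log2 fold changes in edgeR, in 239 autosomal genes. The named genes below are listed for the same reason, each with that effect difference. Their values were chosen from the same contrast and are a description.

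Immune and injury genes, some of them (such as Lyz2 and Rora) made by other cells too, had lower effects at P36. The values were -0.70 for Ptprc, -0.94 for Cd53, -1.10 for Lyz2, -1.93 for Chil3, -1.08 for Siglecf, -0.87 for Mrc1, -1.10 for Mgl2, -1.25 for Ccr2, -0.96 for Itgax and -0.81 for Chil1. They were -1.70 for Xcr1, -1.66 for Clec9a, -2.27 for Klrb1b, -1.54 for Klrb1c, -2.28 for Ms4a4d, -0.49 for Rora and -0.43 for Csf1. Fscn1 was higher at 0.89.

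Genes of antigen presentation and of interferon responses were also lower. The values were -0.83 for H2-Ob, -1.16 for H2-Aa, -1.25 for H2-Ab1, -0.95 for H2-DMa and -1.05 for Psmb9. They were -0.82 for Ifit3, -0.74 for Ifit1, -0.98 for Gbp5 and -1.24 for Iigp1, and those of the serpins were -4.42 for Serpina3f and -1.996 for Serpina3g.

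Matrix and stromal genes went both ways. Higher effects at P36 were 0.98 for Col5a1, 1.13 for Fbln2, 0.86 for Col18a1, 0.76 for Col6a3, 1.995 for Col15a1 and 0.90 for Smtn. Lower effects were -2.20 for Col6a5, -1.54 for Ctgf, -0.88 for Timp3, -3.29 for Has1, -1.59 for Inmt, -1.11 for Cxcl14, -1.48 for Gpm6a and -1.19 for Nox4.

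Among the other genes, higher effects were 6.52 for Grik3, 2.10 for Meg3, 2.02 for Ntrk3, 2.02 for Ccdc3, 1.90 for Csmd1, 1.81 for Fam131b and 1.81 for Cacna2d3. Lower effects were -4.75 for Cpne4, -2.61 for Areg, -0.60 for Cd200, -0.79 for Pi4k2b, -0.54 for C1galt1, -1.21 for Sftpa1 and -0.72 for Klf6.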

How the results depend on the processing

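Of 26 alternatives, 25 were planned and 1, which left out 1 library of each shared number, was chosen after seeing the data. Wherever a called gene could be tested, it kept its sign in all of them, while the number of called genes moved. The alternatives reuse the libraries that picked these genes, so a kept sign is no independent support for the directions. No filter on low counts gave 142, DESeq2 1005 and limma-voom 97. Libraries of a shared number summed gave 0 in edgeR (1931 at an unadjusted p under 0.05), a term for sex 0 (2147), both together 0 (1271) and 1 library of each shared number left out 0 (2193). Leaving out each library in turn gave 0 to 686. The cause of these changes was not tested, and the settings that sum or leave out libraries also have fewer samples. Within 1.5 times of 239 were relative log expression scaling (231), library totals (163), 1 CPM in 3 libraries (240), limma trend on the deposited log2 values (238), no robust option (256) and adjustment over autosomal genes (203). Totals moved the median effect difference of all genes from 0.03 to 0.08.

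The replicate block gave 275 calls, 177 of them among the 239. Deviations of the 18 pairs with the same replicate number correlated from -0.35 to 0.62, 8 of them over 0.1. Pairs with other replicate numbers ran from -0.67 to 0.59. Of 12 samples 7 correlated best with their own replicate number. With 3 libraries a group, and near-identical pairs that share a library number, these values cannot settle whether replicate numbers pair the samples.

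With 3 libraries a group, the smallest called difference was 0.34, and low-count genes such as Grik3 and Cpne4 rest on few reads. Of 56 gene lists the median effect difference changed sign in 9 with the term for sex (acute phase genes and B cells among them), 7 without CKO P36 replicate 3 (adipose and club cell genes among them), 2 with libraries of a shared number summed, and 0 under either other scaling.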

Other observations

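Imprinted genes, which are read from the maternal or the paternal copy alone, were looked at after Meg3 had been seen, so their choice is not independent. Of 33 tested, 3 (9.09%) were called higher, against 0.475% of all autosomal genes, and 0 lower, with 20 positive and 13 negative effect differences and a median of 0.23. Rian, a noncoding RNA of the Meg3 cluster, was at 37.8, 62.9 and 47.9 CPM in Control and 32.6, 24.9 and 24.8 CPM in CKO at P14. At P36 it was at 8.72, 12.4 and 8.98 CPM in Control and 12.97, 15.4 and 22.4 CPM in CKO. CKO was below Control at P14 and above it at P36 without overlap, with an effect difference of 1.61 ± 0.34 (adjusted p = 0.0476, edgeR).

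Peg3, a paternally expressed zinc finger gene, was at 235, 233 and 226 CPM in Control and 151, 159 and 160 CPM in CKO at P14, where it fell (log2 fold change -0.56, adjusted p = 0.000921, edgeR). At P36 it was at 45.9, 43.7 and 48.5 CPM in Control and 45.3, 40.9 and 47.3 CPM in CKO, which overlapped. Its effect difference was 0.52 ± 0.09 (adjusted p = 0.0322, edgeR). H19, a maternally expressed noncoding RNA, rose at P36 (1.12, adjusted p = 0.0207, edgeR), from 2.30, 3.27 and 1.73 CPM in Control to 5.79, 4.05 and 5.94 CPM in CKO. Its effect difference of 1.18 ± 0.28 did not pass (adjusted p = 0.0562, edgeR), nor did the 1.07 ± 0.27 of Igf2, a fetal growth factor (adjusted p = 0.0698, edgeR). In each of these 4 genes every P36 library was below every P14 library.

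Of 24 cell cycle genes 0 were called in edgeR (9 at an unadjusted p under 0.05, 3 in DESeq2 and 0 in limma-voom), with 19 positive effect differences and a median of 0.30, or 0.20 without CKO P36 replicate 3. Of 21 genes of cholesterol synthesis 0 were called (10 unadjusted, 1 in DESeq2 and 0 in limma-voom), with 17 negative and a median of -0.24 (-0.14 with the term for sex), and 2 of them fell at P36.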
